A study of Mus musculus with 6 samples.

Results

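The inhibitors of the cyclin-dependent kinases (CDKs) and the pocket proteins, the brakes on the entry of a cell into S phase, were examined in islet cells of newborn mice sorted by a reporter of *Wnt4* expression. The 10 genes are the 7 CDK inhibitors *Cdkn1a*, *Cdkn1b*, *Cdkn1c*, *Cdkn2a*, *Cdkn2b*, *Cdkn2c* and *Cdkn2d* and the 3 pocket protein genes *Rb1*, *Rbl1* and *Rbl2*. They were chosen by name, and every probe whose RefSeq transcript maps to one of these symbols was taken, which gave 16 of 56605 probes. With each gene read by its probe of highest mean, they are 10 of 45616 genes and transcripts tested.

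The arrays compared *Wnt4*hi with *Wnt4*low islet cells at postnatal day 1 (P1), to ask how the 2 populations differ in gene expression. All pups are described as *Wnt4eGFPCre;mTmG* mice, of lines crossed to C57BL/6J, so that both populations would carry the same alleles. These are a knock-in of eGFP and Cre at *Wnt4*, and a reporter. The reporter changes from membrane tdTomato to membrane GFP (mGFP) once Cre has acted. A legend of the study's supplement labels the 2 groups *Wnt4eGFPCre* Tg+ and Tg− instead, and the sources do not settle this. *Wnt4*hi cells are those sorted as mGFP positive and *Wnt4*low cells those sorted as mGFP negative, and so the sort follows whether Cre from the *Wnt4* locus had acted and not how much *Wnt4* a cell expressed at P1. Islet cells of all kinds were sorted, not beta cells alone, and each sample pooled 3 or 4 pups. There were 3 arrays per population, and the labels number those of *Wnt4*hi 2, 3 and 4 and those of *Wnt4*low 1, 3 and 4. The sources used here do not say whether *Wnt4*hi and *Wnt4*low samples of the same number came from the same pups, nor whether any of the pools share a litter.

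As background, a cell that commits to division does so when cyclin D with CDK4 or CDK6, and then cyclin E with CDK2, phosphorylate RB1 and its relatives p107 (*Rbl1*) and p130 (*Rbl2*), which releases the E2F factors that switch on the genes of DNA replication. INK4 proteins (*Cdkn2a* to *Cdkn2d*) bind CDK4 and CDK6 and keep cyclin D away, whereas CIP/KIP proteins (*Cdkn1a* to *Cdkn1c*) bind whole cyclin and CDK complexes. In the pancreatic islet these inhibitors are known as limits on beta cell division: p57 (*Cdkn1c*) is imprinted and its loss accompanies focal overgrowth of beta cells, p27 (*Cdkn1b*) accumulates as they leave the cell cycle, and p16 (*Cdkn2a*) rises with age.

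The windows before the transcription starts of these genes were searched for short runs of letters. The letters were those that MuvB complexes are known to read and a loose form of those of E2F. In that form, TTTNNCGC, N stands for any base. The 2 windows printed are that of the inhibitor that was higher in *Wnt4*hi cells and that of the pocket protein gene with E2F letters. Both are the 250 bases before a RefSeq start in GRCm38.p6, 5′ to 3′ on the strand of the gene, and capitals mark every match on either strand to the E2F letters TTTNNCGC or to the letters TTTGAA of the cell cycle homology region (CHR), which the MuvB complex reads with p130 or p107. *Cdkn2b* lies on the minus strand at chr4:89311033-89311282 and *Rbl1* on the minus strand at chr2:157204535-157204784.
Cdkn2b: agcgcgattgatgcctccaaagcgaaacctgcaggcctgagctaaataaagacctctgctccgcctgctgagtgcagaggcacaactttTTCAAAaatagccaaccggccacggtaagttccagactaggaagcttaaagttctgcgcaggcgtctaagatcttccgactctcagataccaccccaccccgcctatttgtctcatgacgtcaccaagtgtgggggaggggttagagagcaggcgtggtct
Rbl1: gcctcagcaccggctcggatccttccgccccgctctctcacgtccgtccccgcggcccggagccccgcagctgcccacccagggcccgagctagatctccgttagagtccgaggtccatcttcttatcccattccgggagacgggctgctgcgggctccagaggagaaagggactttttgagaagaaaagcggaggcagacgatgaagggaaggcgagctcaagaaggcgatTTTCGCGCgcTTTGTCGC

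The *Cdkn2b* window held 1 CHR match, written TTCAAA because it lies on the other strand, and 0 E2F matches. The *Rbl1* window held 2 E2F matches, TTTCGCGC and TTTGTCGC, the last of which ends at the base before the start. Promoters were held for 8 of the 10 genes, 11 windows in all, and those of *Cdkn1c* and *Rb1* were not among them. E2F matches were in 3 of the 11 windows, those of 2 genes, *Rbl1* and *Cdkn2a* (TTTCCCGC and TTTAGCGC before 2 starts). CHR matches were in windows of 2 genes, *Cdkn2b* and *Rbl2*. Of 32851 windows of the same length, 4.28% held the E2F letters and 16% the CHR letters. The Sp1-type GC box GGGCGG was in 6 of the 11 windows, beside 32.7% of all windows. A match of letters is not a binding site.

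Of the 10 genes, 2 differed between the populations at the unadjusted threshold of 0.05 that the study used, and they went opposite ways. *Cdkn1c* was lower in *Wnt4*hi cells by 3.24-fold, and *Cdkn2b* was higher by 2.64-fold. In limma's test, 10.5% of all genes and transcripts passed this threshold (5.02% with the higher level in *Wnt4*hi and 5.53% with the lower), and 1 of the 10 would be near that share. After Benjamini-Hochberg adjustment over all 45616, 0 of the 10 passed, beside 0.438% of all, and the lowest adjusted p was 0.0863, that of *Cdkn1c*. The 3 arrays of one population lay apart from the 3 of the other for the same 2 genes, beside 16% of all genes and transcripts (9.56% with the higher level in *Wnt4*hi and 6.44% with the lower). The log2 difference, always *Wnt4*hi minus *Wnt4*low, was above 0 for 5 genes and below 0 for 5, with a median of −0.054 beside 0.072 over all genes and transcripts.

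**Figure D1:**
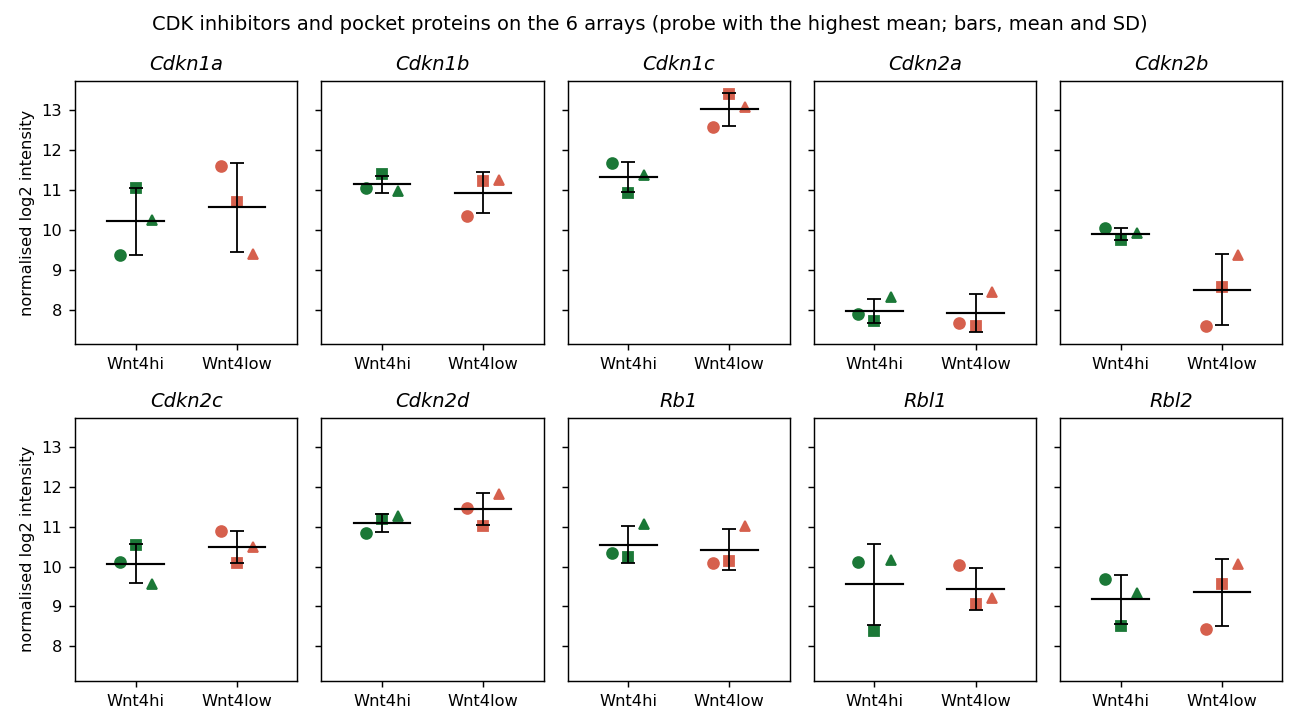
Normalised log2 intensity (vertical axis) of the probe with the highest mean of each of the 10 genes on the 6 arrays, with green points for *Wnt4*hi and red points for *Wnt4*low; circles are *Wnt4*hi replicate 2 and *Wnt4*low replicate 1, squares replicate 3 and triangles replicate 4, and bars give the mean and SD of 3 arrays. The points of the populations lie apart for *Cdkn1c* (at most 11.68 in *Wnt4*hi and at least 12.59 in *Wnt4*low) and for *Cdkn2b* (at least 9.75 and at most 9.36), and overlap for the other 8 genes; levels are not comparable between genes.

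Among the CIP/KIP inhibitors, *Cdkn1c* (p57) was the gene that differed. Its normalised log2 intensity was 11.68, 10.93 and 11.38 in *Wnt4*hi (replicates 2, 3 and 4, the order kept below) and 12.59, 13.41 and 13.08 in *Wnt4*low (replicates 1, 3 and 4). All *Wnt4*low arrays were above all *Wnt4*hi arrays. The scanner's own intensities, before any background correction or normalisation, were already apart, at 2127 to 3314 in *Wnt4*hi and 7312 to 11115 in *Wnt4*low. The means were 11.33 ± 0.38 (SD, n = 3) and 13.03 ± 0.41 (SD, n = 3). The log2 difference was −1.69 ± 0.28 (SE), with a 95% confidence interval from −2.39 to −1.0 (limma, adjusted p = 0.0863). The gene has 1 probe, which each of the 6 arrays measured well above background.

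*Cdkn1a* (p21, the inhibitor that p53 induces after DNA damage) spread widely within each population. Its levels were 9.37, 11.05 and 10.26 in *Wnt4*hi and 11.61, 10.70 and 9.39 in *Wnt4*low, so that the highest and the one of the 2 lowest of the 6 values were both *Wnt4*low arrays. The log2 difference was −0.34 ± 0.66 (SE), with an interval from −1.95 to 1.26 (limma, adjusted p = 0.914), wide enough to hold the size measured for *Cdkn1c*. A second probe, which reads another transcript of the gene, varied less, from 8.60 to 9.22 in *Wnt4*hi and from 8.42 to 9.05 in *Wnt4*low, and differed by 0.17 ± 0.24 (SE).

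*Cdkn1b* (p27) was at 11.06, 11.40 and 10.98 in *Wnt4*hi and at 10.36, 11.22 and 11.24 in *Wnt4*low. The populations overlapped, with *Wnt4*low replicate 1 as the lowest array. The difference of 0.21 ± 0.28 (SE) had an interval from −0.48 to 0.89 (limma, adjusted p = 0.870), whose lower end lies well short of the difference measured for *Cdkn1c*.

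Among the INK4 inhibitors, *Cdkn2b* (p15, which TGF-beta signalling induces) was the gene that differed. It was at 10.04, 9.75 and 9.92 in *Wnt4*hi and at 7.58, 8.57 and 9.36 in *Wnt4*low. The *Wnt4*hi arrays lay close together (9.90 ± 0.14, SD, n = 3), and all of them were above the *Wnt4*low arrays, which were far apart (8.50 ± 0.89, SD, n = 3). Before normalisation the scanner intensities were 740 to 1044 in *Wnt4*hi and 182 to 550.5 in *Wnt4*low. The log2 difference was 1.40 ± 0.43 (SE), with an interval from 0.34 to 2.46 (limma, adjusted p = 0.315), and it passed the unadjusted threshold.

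A second *Cdkn2b* probe was less clear. It read 9.80, 8.11 and 8.67 in *Wnt4*hi and 6.89, 7.71 and 8.83 in *Wnt4*low, and was well above background on 3 *Wnt4*hi and 2 *Wnt4*low arrays. *Wnt4*low replicate 4 lay above 2 of the 3 *Wnt4*hi arrays on this probe, and the difference of 1.05 ± 0.62 (SE) did not pass the unadjusted threshold (limma, adjusted p = 0.648). The first probe passed with each array left out in turn, the lowest difference being 0.94 (no *Wnt4*low replicate 1) and the highest 1.83 (no *Wnt4*low replicate 4). It did not pass in the methods' t-test on the same values or in the authors' own log2 table (0.89).

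*Cdkn2a*, whose single locus encodes both p16 and the p53 regulator p19ARF, was among the genes nearest to 0. Its first probe read 7.89, 7.72 and 8.31 in *Wnt4*hi and 7.67, 7.59 and 8.45 in *Wnt4*low, a difference of 0.065 ± 0.29 (SE; limma, adjusted p = 0.967). Its second probe was well above background on 0 of the 6 arrays and has no measured level. The first probe was itself dim, at 4.57 to 9.23 times the local background, so its value near 0 does not show equal levels. Which of the products the first probe reads was not determined.

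*Cdkn2c* (p18) was at 10.13, 10.53 and 9.56 in *Wnt4*hi and at 10.90, 10.10 and 10.50 in *Wnt4*low, and *Cdkn2d* (p19INK4D) at 10.84, 11.20 and 11.27 and at 11.48, 11.03 and 11.83. Both overlapped between the populations, although in each the highest array was a *Wnt4*low one. The differences were −0.43 ± 0.31 (SE) for *Cdkn2c* and −0.35 ± 0.24 (SE) for *Cdkn2d*, and neither passed (limma, adjusted p = 0.741 and 0.727).

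Of the 3 pocket protein genes, 0 passed the unadjusted threshold in limma, beside 10.5% of all genes and transcripts, and their intervals were wide. *Rb1*, whose product binds the activating E2Fs, was at 10.34, 10.25 and 11.08 in *Wnt4*hi and at 10.10, 10.15 and 11.03 in *Wnt4*low. The arrays of the populations interleave, and replicate 4 was the highest in both. The difference was 0.13 ± 0.34 (SE; limma, adjusted p = 0.942), and a second *Rb1* probe, well above background on 2 *Wnt4*hi and 3 *Wnt4*low arrays, gave −0.73 ± 0.48 (SE), on the other side of 0.

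*Rbl1* (p107, known as a gene that E2F itself switches on, and whose E2F letters are printed above) was at 10.12, 8.38 and 10.16 in *Wnt4*hi and at 10.03, 9.06 and 9.20 in *Wnt4*low. *Wnt4*hi replicate 3 was the lowest of the 6 arrays and replicates 2 and 4 the highest, so the difference of 0.12 ± 0.54 (SE) sits inside a wide interval from −1.20 to 1.44 (limma, adjusted p = 0.968). Its probes differed in sign: a second one, of another transcript, read 6.91, 6.94 and 8.18 in *Wnt4*hi and 7.72, 8.14 and 9.60 in *Wnt4*low, a difference of −1.14 ± 0.58 (SE; limma, adjusted p = 0.572), while being well above background on 1 *Wnt4*hi array and 3 *Wnt4*low arrays. The last of its probes differed by 0.24 ± 0.18 (SE).

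*Rbl2* (p130, the pocket protein of resting cells) was at 9.70, 8.50 and 9.34 in *Wnt4*hi and at 8.43, 9.57 and 10.06 in *Wnt4*low. The lowest and the highest arrays were both *Wnt4*low ones. The difference was −0.17 ± 0.50 (SE; limma, adjusted p = 0.946).

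Over the 16 probes, 2 passed the unadjusted threshold beside 11% of all probes, and 2 did not overlap, beside 16.4%. Of the 16, 12 stood well above background on each of the 6 arrays. Of the 5 genes with more than 1 probe, *Cdkn1a*, *Rb1* and *Rbl1* had probes on both sides of 0, and *Cdkn2b* had both on the same side.

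**Figure D2:**
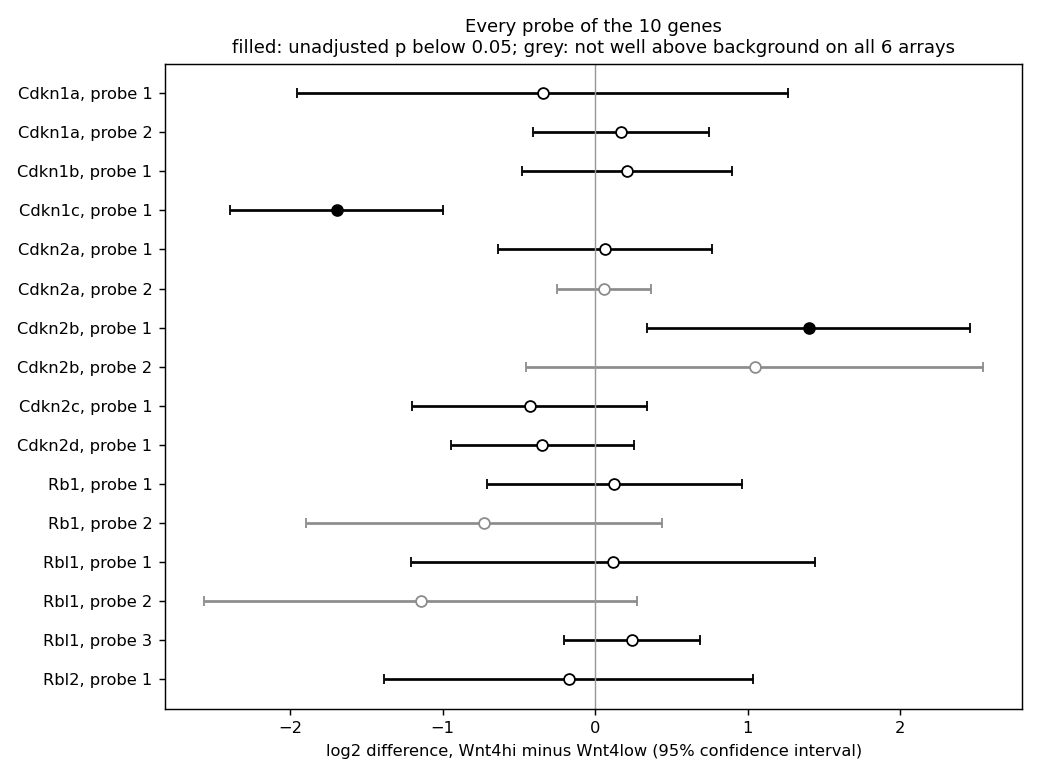
Log2 difference of each of the 16 probes (horizontal axis, *Wnt4*hi minus *Wnt4*low) with its 95% confidence interval; filled points passed the unadjusted threshold, and grey marks a probe that was dim on at least 1 of the 6 arrays. The intervals of the *Cdkn1c* probe (−2.39 to −1.0) and of the first *Cdkn2b* probe (0.34 to 2.46) exclude 0, and those of the other 14 probes include it.

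Markers of several cell types differed between the same samples. *Wnt4* itself was higher in *Wnt4*hi cells, by 1.08 ± 0.27 (SE; limma, adjusted p = 0.212), with the arrays of the populations apart. The 3 *Wnt4*low arrays also read it well above background (9.85, 10.11 and 9.31, beside 11.20, 10.53 and 10.77 in *Wnt4*hi), so the mGFP-negative samples were not without *Wnt4* RNA. Of 12 endothelial markers, all were lower in *Wnt4*hi cells, 11 at the unadjusted threshold (beside 5.53% of all genes and transcripts lower) and 8 after adjustment (beside 0.403%), and their summed linear intensity was 4590 to 6569 in *Wnt4*hi and 36110 to 75472 in *Wnt4*low. The adjusted calls rest on all 6 arrays, since with any 1 left out 0 to 2 of all 45616 genes and transcripts passed. The next shares stand beside the same 5.53% lower and 5.02% higher. Of 10 mesenchyme and pericyte markers, all were lower and 6 passed (sum 35406 to 67951 and 83039 to 110900), and of 10 leukocyte markers 9 were lower and 6 passed (10460 to 13931 and 19334 to 24019). Of 10 beta cell markers, 9 were higher and 6 passed (327985 to 336163 and 190372 to 292872), and of 5 alpha cell markers all were higher and 2 passed. *Ppy* of gamma cells (1.22 ± 0.20, SE) and *Ghrl* of epsilon cells (2.10 ± 0.27, SE) were higher and passed, and of 3 delta cell markers 2 passed lower and 1 higher. The hormone genes *Ins2*, *Gcg* and *Sst* stood well above background on each of the 6 arrays. Their differences were 0.56 ± 0.19, 1.28 ± 0.65 and −0.56 ± 0.19 (SE), and *Gcg*, whose arrays overlapped, did not pass. Well above background on all 6 arrays were also 8 of the 12 endothelial, 10 of the 10 mesenchyme and 9 of the 10 leukocyte markers. None of these lists held a marker undetected on every array. *Cdkn1c* was thus lower in the same samples as the endothelial, mesenchyme and leukocyte markers and 2 delta cell markers, and *Cdkn2b* higher in the same samples as the beta, alpha, gamma and epsilon cell markers, and the part of these cells in either result was not tested. In sorted cells measured in bulk, fewer cells of a type and less RNA per cell cannot be told apart.

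The kinases that the inhibitors act on were measured on the same arrays. Of 5 D cyclins and their kinases, 3 passed the unadjusted threshold, all lower in *Wnt4*hi cells (beside 5.53% of all genes and transcripts lower), among them *Ccnd1* (cyclin D1) at 8.61, 8.15 and 9.25 in *Wnt4*hi and 10.55, 10.44 and 10.95 in *Wnt4*low, a difference of −1.98 ± 0.31 (SE; limma, adjusted p = 0.0710). *Cdk6*, the partner that INK4 proteins bind, differed by −1.04 ± 0.41 (SE) with overlapping arrays, and was well above background on 1 *Wnt4*hi array. Of 9 genes for E and A cyclins, CDK2 and the kinase and the phosphatase (*Cdc25a*) that activate it, 2 passed, both lower (beside the same 5.53%): *Cdk2* by −1.59 ± 0.41 (SE), with 1 of 3 *Wnt4*hi arrays well above background, and *Ccna2* (cyclin A2) by −1.0 ± 0.19 (SE), well above it on all.

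Downstream of the pocket proteins, 0 of the 10 E2F and DP factors passed in either direction in limma's unadjusted test, beside 10.5% of all genes and transcripts. Of 15 S-phase genes that E2F controls, 6 passed, all lower in *Wnt4*hi cells (beside 5.53% of all lower), and the median difference of the 15 was −0.54, beside 0.072 over all genes and transcripts. *Pcna*, the clamp of the replicative polymerases, was at 12.43, 12.84 and 13.05 in *Wnt4*hi and 13.66, 13.38 and 13.77 in *Wnt4*low, a difference of −0.83 ± 0.21 (SE), and *Mcm3*, a subunit of the replicative helicase, differed by −1.01 ± 0.39 (SE) with overlapping arrays. Of the 7 genes of the MuvB core and its partners, the mitotic activator *Foxm1* was lower (−1.36 ± 0.37, SE, beside 5.53% of all lower) and the core subunit *Lin37* higher (0.81 ± 0.28, SE, beside 5.02% of all higher), and 5 did not pass. Of the 6 corepressors recruited by RB, 0 passed the unadjusted threshold in limma, beside 10.5% of all, and 1 had arrays that did not overlap, beside 16%.

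Around *Cdkn1a*, 4 of the 13 genes of the p53 list passed, 3 lower and 1 higher in *Wnt4*hi cells (beside 5.53% and 5.02% of all genes and transcripts). *Trp53* was at 10.19, 11.21 and 9.52 in *Wnt4*hi and 11.40, 11.60 and 11.98 in *Wnt4*low, a difference of −1.35 ± 0.43 (SE). Of its targets that passed, 2 were lower, among them *Phlda3*, an inhibitor of AKT (−1.32 ± 0.53, SE), and *Sesn2*, a stress-induced inhibitor of mTORC1, was higher (0.62 ± 0.16, SE), and the median of the list was 0.013. Of the 8 genes for ubiquitin ligases that mark CIP/KIP proteins for destruction, 0 passed the unadjusted threshold in limma, beside 10.5% of all.

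Upstream of *Cdkn2b* and *Cdkn2a*, 3 of 8 SMAD, FOXO and MYC regulators passed, all lower in *Wnt4*hi cells (beside 5.53% of all genes and transcripts lower). *Smad3*, which carries the TGF-beta signal to the *Cdkn2b* promoter, was at 9.23, 8.70 and 8.52 in *Wnt4*hi and 10.45, 9.65 and 10.35 in *Wnt4*low (−1.33 ± 0.29, SE). *Myc*, which represses that promoter through MIZ1, was at 10.82, 11.29 and 11.40 in *Wnt4*hi and 12.84, 12.32 and 12.12 in *Wnt4*low (−1.26 ± 0.25, SE). For both the arrays of the populations lay apart, and the inducer and the repressor were thus lower in the same samples. Of 10 measured genes for Polycomb proteins, menin and the demethylase KDM6B, which act on the chromatin of the INK4 genes, 1 passed (beside 10.5% of all), the histone methyltransferase *Ezh2* (−0.79 ± 0.18, SE).

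In the imprinted domain of *Cdkn1c*, 1 of 9 neighbours passed (10.5% of all genes and transcripts did), *Cd81*, a membrane tetraspanin, by −0.54 ± 0.17 (SE), and the median of the 9 was 0.026. *Kcnq1ot1*, the antisense RNA that silences *Cdkn1c* on the paternal copy, was named after its values were seen, and differed by 0.26 ± 0.23 (SE) without passing (limma, adjusted p = 0.793). Beside *Cdkn2a* and *Cdkn2b*, 1 of 2 neighbours passed (beside 10.5% of all genes and transcripts): *Mtap*, an enzyme of methionine salvage, went against *Cdkn2b* with a difference of −1.82 ± 0.45 (SE), being well above background on 2 *Wnt4*hi and 3 *Wnt4*low arrays. The other of these neighbours was well above background on 0 of 6 arrays.

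Over all 102 measured genes of these lists, 23 passed the unadjusted threshold, 21 of them lower and 2 higher in *Wnt4*hi cells (beside 10.5%, 5.53% and 5.02% of all genes and transcripts), and 0 passed after adjustment in limma. Their median difference was −0.13. The endothelial, mesenchyme and leukocyte markers given above were lower in the same samples, and their part in these differences was not tested.

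**Figure D3:**
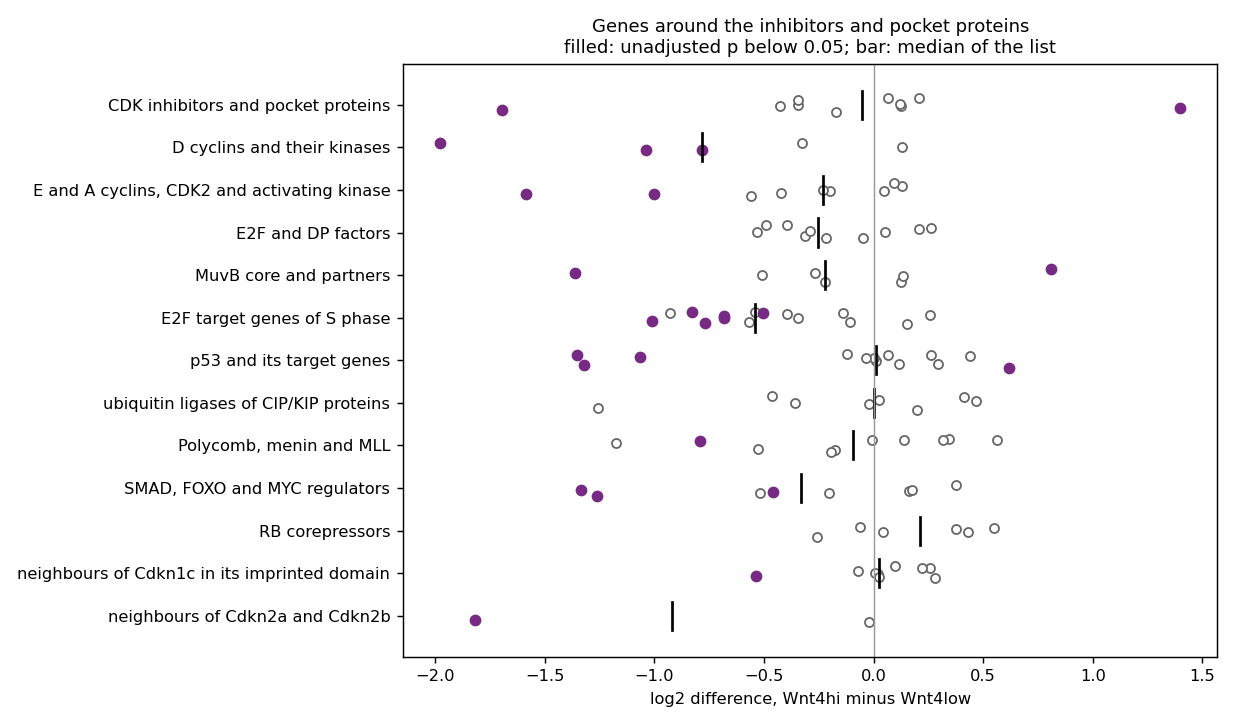
Log2 difference (horizontal axis, *Wnt4*hi minus *Wnt4*low) of each measured gene of the 10 inhibitors and pocket proteins and of the lists around them; filled points passed the unadjusted threshold and bars give the median of a list. Filled points lie on both sides of 0 among the inhibitors (−1.69 and 1.40), whereas the 6 filled points of the S-phase list and the 3 of the D cyclin list all lie below 0.

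No array stood apart in signal: 70.5% to 79.5% of probes were well above background, the median intensity was 10.8 to 15.6 times the local background, 0 spots were saturated, and all 6 arrays lie on 1 slide. *Wnt4*low replicate 4 had 8 of the 10 genes above their mean over the arrays, the other arrays 4 or 5. With 3 arrays against 3, an exact two-sided permutation test cannot give a p below 0.1, so limma's test, which shares the spread over genes, carries each call.

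**Figure D4:**
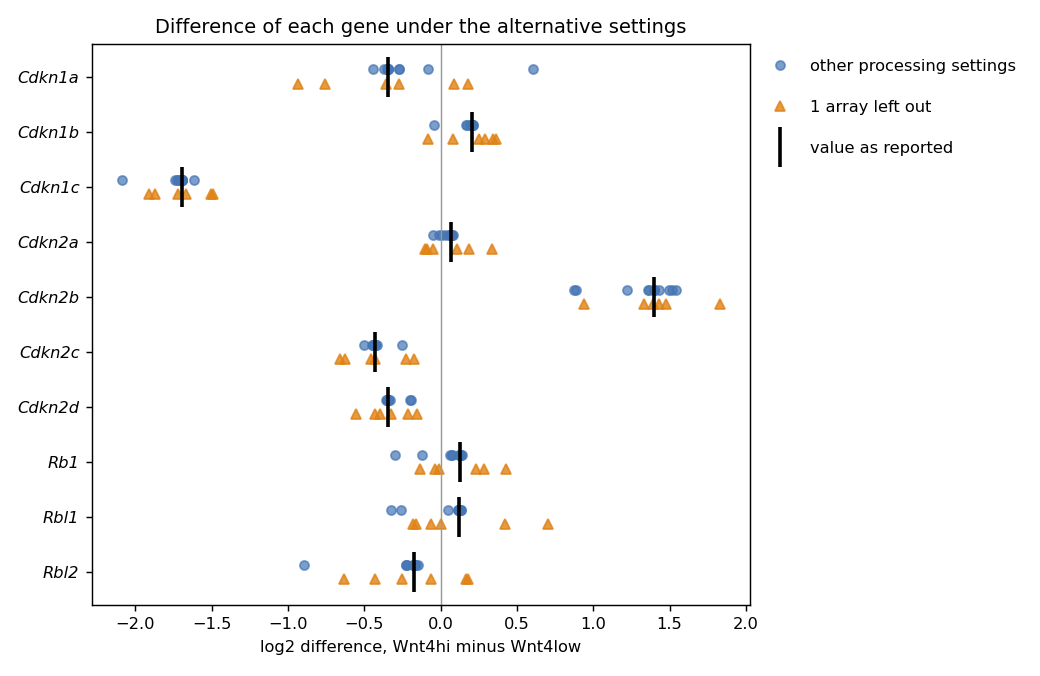
Log2 difference of each of the 10 genes (horizontal axis, *Wnt4*hi minus *Wnt4*low) as reported (black bar), under other processing settings (blue circles) and with 1 array left out (orange triangles). *Cdkn1c* stays between −2.09 and −1.49 and *Cdkn2b* between 0.87 and 1.83, whereas the values of *Cdkn1a*, *Cdkn1b*, *Cdkn2a*, *Rb1*, *Rbl1* and *Rbl2* fall on both sides of 0.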

How the data were processed

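Gene expression was measured in 6 samples of sorted P1 islet cells, 3 *Wnt4*hi and 3 *Wnt4*low. The authors amplified the RNA to cDNA, labelled it with Cy5 and hybridised it to 1-color Agilent mouse arrays, and deposited for each array the scanner software's red median intensity of every spot and of its local background, not normalised. They also deposited a table of 36693 rows of their own normalised log2 values, used as an alternative. The submitters' processing notes name Agilent Feature Extraction 9.1, whereas the file headers give 12.0.1.1.

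After the study's methods, limma (version 3.58.1, R 4.3.3) was used with normexp background correction at an offset of 50, quantile normalisation between arrays over 59305 spots that are not controls, and lmFit with eBayes over 45616 genes and transcripts (or 56605 probes), two-sided, without covariates, adjusted by Benjamini-Hochberg over all of them. Outlier spots (50 to 141 per array) were left out and spots of 1 probe averaged. Of 27845 RefSeq-type probe names, 25126 matched RefSeq genes of GRCm38.p6, used for names and promoter sequences. A symbol with several probes was read by the one of highest mean. Levels of different probes are not compared. The p-values measure the spread between these pools of pups, and precision is limited by there being 3 arrays per population.

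The 10 genes and the lists were chosen with earlier results of these data known. The genes named are the 10 with all their probes and at most 2 in each direction per list. Those of a list have the largest difference among genes passing the unadjusted threshold and measured above background throughout the higher population. *Wnt4*, *Ins2*, *Gcg* and *Sst* were named as checks of the sort. Marker lists are given by count, apart from the lists of 1 gene. The endothelial, mesenchyme, leukocyte and beta cell lists are given by range too. *Kcnq1ot1* and the 1-gene lists (*Ppy*, *Ghrl*) were named after their values were seen. Calculations were tested on simulated data. Marker lists without a value above were acinar (9 of 10 lower, 1 passing), duct (4 of 6 higher, 1 passing), Schwann (4 of 5 lower, 1 passing) and erythroid (3 of 4 lower, 2 passing), all of those passing being lower, beside 5.53% of all genes and transcripts. As alternatives, other background corrections, normalisations, variance models and rules for dim, outlying or multiple probes were run, as were the authors' table, a replicate block and the removal of single arrays.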

Additional observations from a re-analysis of the deposited data

How the results depend on the processing

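*Cdkn1c* passed the unadjusted threshold in all 19 alternatives (−2.09 to −1.49) and after adjustment in 1, the filter that kept 31996 genes above background (adjusted p = 0.0429, range over the 19 from 0.0429 to 0.375). That filter gave 1 of the 10 genes and 504 of all features past the adjusted threshold, against 0 and 200 in the values reported. *Cdkn2b* passed in 17 of 19, all 6 that left out an array included, and not in the Student t-test or in the authors' log2 table (0.89). The Student t-test left 1 of the 10 genes, 15 of the 102 pathway genes against 23, and 0 features after adjustment. The authors' table, which holds 7 of the 10 genes, gave 1 gene and 406 features, and turned *Cdkn2a* (−0.053), *Rb1* (−0.12) and *Rbl1* (−0.32, another probe) to the other side of 0. Its column for *Wnt4*hi replicate 2 correlated at 0.27 with its own array and at 0.29 with the array of *Wnt4*hi replicate 3. The other columns correlated with their own arrays at 0.84 to 0.87 (across probes, centred), and the cause was not tested. The mean of all probes turned *Rb1* (−0.30) and *Rbl1* (−0.26) likewise. With a fixed replicate block, 0 features passed after adjustment, 3 of the 10 genes and 4 of the 16 probes passed unadjusted, *Rbl2* (−0.89) joining *Cdkn1c* (−2.09) and *Cdkn2b* (0.87) and the second *Rbl1* probe (−1.31) joining these, and *Cdkn1a* (0.61), *Cdkn1b* (−0.042) and *Cdkn2a* (−0.0088) turned. The populations share 2 replicate numbers, whose deviations correlated at −0.033 and 0.156, so a pairing was not established. With 1 array left out, 0 to 2 features passed after adjustment, 2 to 3 of the 10 genes, 2 to 3 of the 16 probes and 16 to 24 of the pathway genes passed unadjusted, *Cdkn2d* passed without *Wnt4*low replicate 3 (−0.55), and the second *Cdkn2b* probe passed without *Wnt4*low replicate 4 (1.56; 0.58 without *Wnt4*hi replicate 2, 0.59 without *Wnt4*low replicate 1, and 0.12 with the fixed block) and the second *Rbl1* probe without *Wnt4*hi replicate 4 (−1.56; −0.59 without *Wnt4*low replicate 4). The ranges on both sides of 0 were −0.93 to 0.18 for *Cdkn1a*, −0.085 to 0.36 for *Cdkn1b*, −0.10 to 0.34 for *Cdkn2a*, −0.14 to 0.43 for *Rb1*, −0.18 to 0.70 for *Rbl1* and −0.64 to 0.18 for *Rbl2*. The direction of these 6 genes is thus not settled by these arrays. With 1 array left out, *Cdkn2c* (−0.66 to −0.17), *Cdkn2d* (−0.55 to −0.15) and the second *Rb1* probe (−1.01 to −0.30) stayed below 0. Of the 16 probes, 12 were well above background throughout, and the differences of the others include arrays that were not.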
